A study of Mus musculus with 12 samples.

Results

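Double-positive cardiac progenitors, which showed both a red and a green reporter signal, were compared with red-only progenitors, which showed the red signal alone. The 2 populations were represented by 6 of the 12 Affymetrix mouse arrays of the series, chosen by their titles: 3 double-positive (Red+/Green+) and 3 red-only (Red+/Green-), one of each from experiments A, B and C. All populations were sorted by flow cytometry from mouse embryonic stem cells on day 6 of differentiation as embryoid bodies, cell aggregates formed in hanging drops. In all of them dsRed reported a second heart field enhancer and eGFP a cardiac enhancer, and the other 6 arrays hold green-only and double-negative cells of the same experiments. A reporter marks cells in which its enhancer has been active, including cells in which the fluorescent protein outlasts that activity, so each population may hold several cell types. The labels name neither the line, the genes of the enhancers nor the gates, and do not say whether the letters mark separate cultures, so the p-values below measure only the spread between these arrays, which may be technical.

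The second heart field is a pool of mesodermal progenitors that adds the outflow tract, the right ventricle and part of the atria to the early heart tube. Its cells can become cardiac muscle, smooth muscle or endothelium, and they keep dividing before the transcription factors Nkx2-5, Gata4, Tbx5 and Mef2c, with Srf and its coactivator Myocd, switch on the contractile genes. The sarcomere, the unit of contraction, is built of thick myosin filaments and thin actin filaments anchored at Z-discs, and the muscle that contains it draws on mitochondria for energy.

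Of 13700 genes tested with limma, 999 were higher in double-positive cells (7.29%) and 1076 were lower (7.85%), together 15.1% of those tested, at a Benjamini-Hochberg adjusted p under 0.05 and with no minimum fold. The changes of 2-fold or more leaned upward, with 229 genes higher (1.67%) and 145 lower (1.06%). For 31% of genes tested the arrays of the 2 populations did not overlap. Lack of overlap was also a condition for choosing the largest increases and decreases named below. Without the experiment letter as a block 771 genes were higher (5.63%) and 768 lower (5.61%). Over all genes the median log2 difference, given throughout as double-positive minus red-only, was 0.00425. Without experiment B 737 genes passed. Leaving out the double-positive array of experiment A left 1215, the red-only array of A 1263, the red-only array of B 1249 and the whole of experiment C 1254; without experiment A 642 genes were higher. The deposited values are linear intensities whose array medians lay between 6.29 and 6.64 and whose lowest values lay between 2.12 and 2.22. Levels around or below the array median are called near the floor here, and a fold against them is uncertain. Log2 intensities correlated at 0.990 to 0.994 among double-positive arrays, 0.989 to 0.992 among red-only arrays and 0.962 to 0.981 between the populations. The ratio of 3' to 5' probe sets of actin, a sign of RNA quality, was 1.4 to 1.55 in double-positive and 1.32 to 1.48 in red-only arrays.

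The cardiac lineage factors Nkx2-5, Mef2c and Isl1 had levels well above the array medians in both populations. Nkx2-5, a homeobox factor of cardiac progenitors, read 369.7, 452 and 425 in double-positive arrays of experiments A, B and C and 138, 154 and 207 in red-only arrays. The ranges did not overlap, and the log2 difference was 1.34 ± 0.14 (SE), a 2.52-fold rise with an adjusted p of 6.53e-05. Mef2c, a factor of muscle and endothelium whose enhancer is active in the second heart field, read 439, 487 and 447 against 189, 246 and 271, a log2 difference of 0.97 ± 0.15 (adjusted p = 0.00107). Isl1, the homeobox factor of second heart field progenitors, did not pass, at 76.5, 88.6 and 95.1 in double-positive against 100.3, 95.3 and 107 in red-only cells (-0.22 ± 0.13, adjusted p = 0.32). Troponin T (Tnnt2), a marker of cardiac muscle, was already between 247 and 384 in red-only cells, against 15.2 to 28.5 in double-negative cells. In double-positive cells it was at 1609 to 2214.

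**Figure D1:**
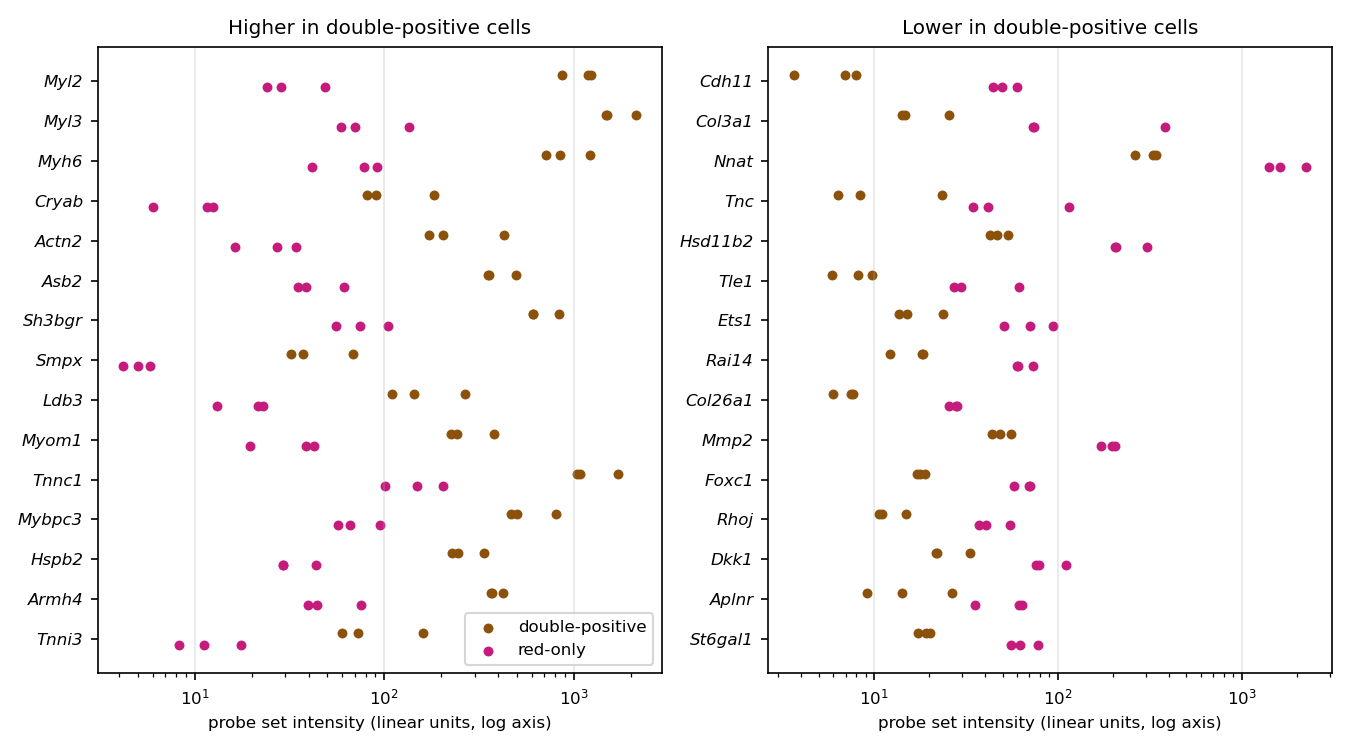
Probe set intensity (linear units, log axis) of the 15 genes with the largest increase and the 15 with the largest decrease in double-positive cells, each point 1 array, 3 arrays per population. The populations do not overlap for any gene shown, which was a condition for choosing them, and Myl2 lies at 864 to 1230.2 in double-positive and 24.1 to 48.8 in red-only arrays.

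Myosin genes of the thick filament showed the largest rises. Myl2, the regulatory light chain of ventricular myosin, read 1230.2, 1194 and 864 in double-positive arrays and 24.1, 28.7 and 48.8 in red-only arrays, in the order A, B, C. Every double-positive array was far above every red-only array, and the 33.5-fold difference (log2 5.07 ± 0.31, adjusted p = 5.27e-06) was the largest among the genes eligible to be named. Myl3, the essential light chain of the same myosin, read 2134, 1491 and 1508 against 69.9, 59.2 and 135, a 20.5-fold rise (4.36 ± 0.32, adjusted p = 7.14e-06). Experiment C gave the smallest difference for each, 4.15 for Myl2 and 3.48 for Myl3, and its red-only array was the highest of the 3. Myh6, the alpha myosin heavy chain, read 1222, 849 and 713 against 78.4, 41.6 and 92.2 and rose 13.5-fold. Myom1, which crosslinks the thick filaments at the M-band, and Mybpc3, cardiac myosin-binding protein C, rose 8.68-fold and 8.1-fold. All 11 thick filament genes tested were higher, with a median log2 difference of 2.80 and differences from 0.64 to 5.07; 2 of the 13 listed were not tested, 1 for its low level and 1 without a match.

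Thin filament and Z-disc genes followed. All 10 thin filament genes tested rose (2 others were too low), with a median of 2.42. Cardiac troponin C (Tnnc1) read 1713, 1044 and 1082 against 149.5, 101 and 204. Cardiac troponin I (Tnni3), the isoform of the maturing heart, read 159.6, 73.2 and 60.2 against 11.2, 8.25 and 17.5. Neither pair of ranges overlapped, and the rises were 8.56-fold and 7.59-fold. Actc1, cardiac actin, rose 6.12-fold from levels already at 504 to 956 in red-only cells, and Nebl (nebulette), which binds actin near the Z-disc, rose 7.45-fold. Tnnt2 rose 6.1-fold on a probe set of the type that may share probes with related transcripts, and so may that of Myl3.

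Of 14 Z-disc genes tested, 13 rose, with a median of 2.55. Actn2, the alpha-actinin that crosslinks actin there, read 430.4, 172 and 205 against 27.1, 16.3 and 34.2, a 10.03-fold rise. Cryab, a small heat shock protein that protects desmin and titin, read 184, 80.8 and 91.1 against 11.6, 6.00 and 12.4 (11.6-fold). Its red-only level in experiment B was near the floor. For Actn2 and Cryab the double-positive array of experiment A was the highest, and no ranges overlapped. Smpx, a small muscle protein, rose 8.75-fold from 4.20 to 5.77 in red-only cells, which is near the floor. Ldb3 (Cypher), a PDZ-LIM protein, rose 8.69-fold and Synpo2l 7.37-fold. Leaving out any array or experiment kept 10 or 11 of the thick filament, 9 or 10 of the thin filament and 13 of the Z-disc genes above the threshold.

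The other large increases included muscle genes outside the filaments. Asb2, the substrate-binding part of a ubiquitin ligase that acts on filamins, read 495, 353 and 359.9 in double-positive and 38.5, 35.1 and 61.5 in red-only arrays. Sh3bgr, a gene expressed in heart and skeletal muscle, read 842, 609 and 609 against 74.4, 55.7 and 105. Hspb2, a small heat shock protein and genomic neighbour of Cryab, read 337, 227 and 246 against 29.2, 29.3 and 43.4. These rises were 9.12-fold, 8.95-fold and 7.97-fold, and Armh4 rose 7.61-fold. Their ranges did not overlap, which was a condition for choosing the largest increases. Other probe sets of the gene existed for 5 of the 15 largest increases. Of the 6 such probe sets that were tested 5 were also higher, and the sixth did not pass.

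The promoters of the sarcomere genes are shown because these genes moved together. RefSeq promoters (GRCm38.p6) were found for 31 of the 35 sarcomere genes tested, and the 250 bases before the first listed start were searched on both strands. The search covered the CArG box bound by Srf, the MEF2 site, AGATAA, which factors of the Gata family bind, and AAGTGG, the core of the letters bound by Nkx2-5. The CArG box and the MEF2 site need ambiguous letters and are given by name. A CArG box lay in 7 of the 31 promoters (22.6%), against 1.21% of the 10993 promoters of genes tested and 1.4% of all 27025 promoters. A MEF2 site lay in 4 (12.9%, against 1.57% of genes tested), AGATAA in 9 (29%, against 6.27%) and AAGTGG in 6 (19.4%, against 14%). None of 18 oxidative phosphorylation promoters and none of 14 endothelial promoters held a CArG box. At 1.21% of genes tested, lists this small would mostly hold none, so this sets no contrast. The 120 bases before the start are printed 5' to 3' for all 7 promoters with a CArG box and for Mybpc3, which has a MEF2 site, with CArG boxes, MEF2 sites and AGATAA (or its reverse complement) in capitals; no motifs overlap in them. They are chr9:110763558-110763677 on the plus strand (Myl3), chr11:5898783-5898902 minus (Myl7), chr17:71019437-71019556 plus (Myom1), chr2:114052876-114052995 minus (Actc1), chr8:123894776-123894895 minus (Acta1), chr14:34588682-34588801 minus (Ldb3), chr1:43196762-43196881 minus (Fhl2) and chr2:91118024-91118143 plus (Mybpc3).
Myl3: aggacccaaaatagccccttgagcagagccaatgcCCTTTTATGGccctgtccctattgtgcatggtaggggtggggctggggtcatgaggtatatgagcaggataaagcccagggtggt
Myl7: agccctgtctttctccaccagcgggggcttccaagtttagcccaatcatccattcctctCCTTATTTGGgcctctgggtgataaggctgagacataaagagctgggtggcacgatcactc
Myom1: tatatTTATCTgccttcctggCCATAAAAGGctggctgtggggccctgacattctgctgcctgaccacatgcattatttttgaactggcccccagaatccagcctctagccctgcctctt
Actc1: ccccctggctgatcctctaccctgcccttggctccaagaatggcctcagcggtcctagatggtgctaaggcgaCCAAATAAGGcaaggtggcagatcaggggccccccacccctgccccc
Acta1: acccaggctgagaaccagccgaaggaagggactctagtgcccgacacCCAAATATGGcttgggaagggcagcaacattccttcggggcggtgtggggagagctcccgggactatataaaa
Ldb3: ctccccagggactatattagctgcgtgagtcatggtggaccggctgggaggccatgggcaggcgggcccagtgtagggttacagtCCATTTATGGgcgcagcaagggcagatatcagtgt
Fhl2: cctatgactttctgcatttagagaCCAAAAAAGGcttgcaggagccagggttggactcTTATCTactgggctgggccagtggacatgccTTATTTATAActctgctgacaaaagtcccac
Mybpc3: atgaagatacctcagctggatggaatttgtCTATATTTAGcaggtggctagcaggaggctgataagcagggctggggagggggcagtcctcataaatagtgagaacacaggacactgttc
All 8 genes rose in double-positive cells, by log2 differences of 4.36 (Myl3), 1.85 (Myl7), 3.12 (Myom1), 2.61 (Actc1), 2.24 (Acta1), 3.12 (Ldb3), 0.87 (Fhl2) and 3.02 (Mybpc3). Acta1 and Fhl2 are named for their promoters, after their values were seen. Myl2, which rose most, had neither a CArG box nor a MEF2 site by these letters in its 250 bases, and held AGATAA once. A match is a description of the letters and not a bound site, and the absence of one says only that these letters are not in this window.

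Genes of calcium handling, the step that couples the action potential to contraction, rose in 7 of 12 tested, with a median of 1.27. Ryr2, the release channel of the sarcoplasmic reticulum, read 92.9, 67.5 and 49.6 against 8.58, 8.08 and 11.6 (7.29-fold). Cacna1c, the pore of the L-type calcium channel, read 63.8, 41.3 and 48.5 against 10.8, 10.3 and 10.2 (4.84-fold), and the exchanger Slc8a1 rose 6.22-fold. The ranges were apart for all 3. Srl (sarcalumenin) and Hrc, calcium-binding proteins of the reticulum, rose 7.52-fold and 4.53-fold. Atp2a2, the calcium pump, did not pass, at 325 to 341 in double-positive and 313 to 329.7 in red-only cells, and the store protein Casq2 lay near the floor in both populations (5.84 to 6.31 and 5.90 to 6.51).

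Of 10 ion channel and connexin genes tested, 4 rose and 1 fell. Cacna1h, a T-type calcium channel, rose 3.56-fold, Kcnh2, the channel of the rapid delayed rectifier current, 2.8-fold and Kcnj5, a subunit of the acetylcholine-gated potassium channel, 2.86-fold. Cacna1d, the pacemaker L-type channel, rose 1.6-fold. Gja1 (connexin 43), the gap junction protein of working ventricle, was lower, at 75.5, 61.5 and 81.3 against 159, 171 and 163. The ranges did not overlap, but its 2.28-fold fall (adjusted p = 0.015) no longer passed without experiment B or without the double-positive array of A or B or the red-only array of B or C. The call of Cacna1d was lost without experiment B.

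Cardiac transcription factors rose in 9 of 20 tested and none fell, with a median of 0.32 and differences from -0.52 to 2.49; 6 rose without experiment A or without B, and 1 fell in some fits, among them that with the intensity trend. Smyd1, a muscle-restricted methyltransferase, read 498, 501 and 512 against 73.4, 79.2 and 124, a 5.62-fold rise. Myocd (myocardin) rose 2.61-fold, from 78.9 to 94.2 up to 208 to 244, Smarcd3 (Baf60c), a cardiac subunit of the BAF chromatin complex, 2.5-fold and the ventricular factor Irx4 3.01-fold. Gata4 was at 161 to 172 in double-positive and 138 to 169.9 in red-only cells and Hand2 at 175 to 255 and 186 to 247, and neither passed (adjusted p = 0.63 and 0.864). Gata6 and Tbx5 did not pass either.

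**Figure D2:**
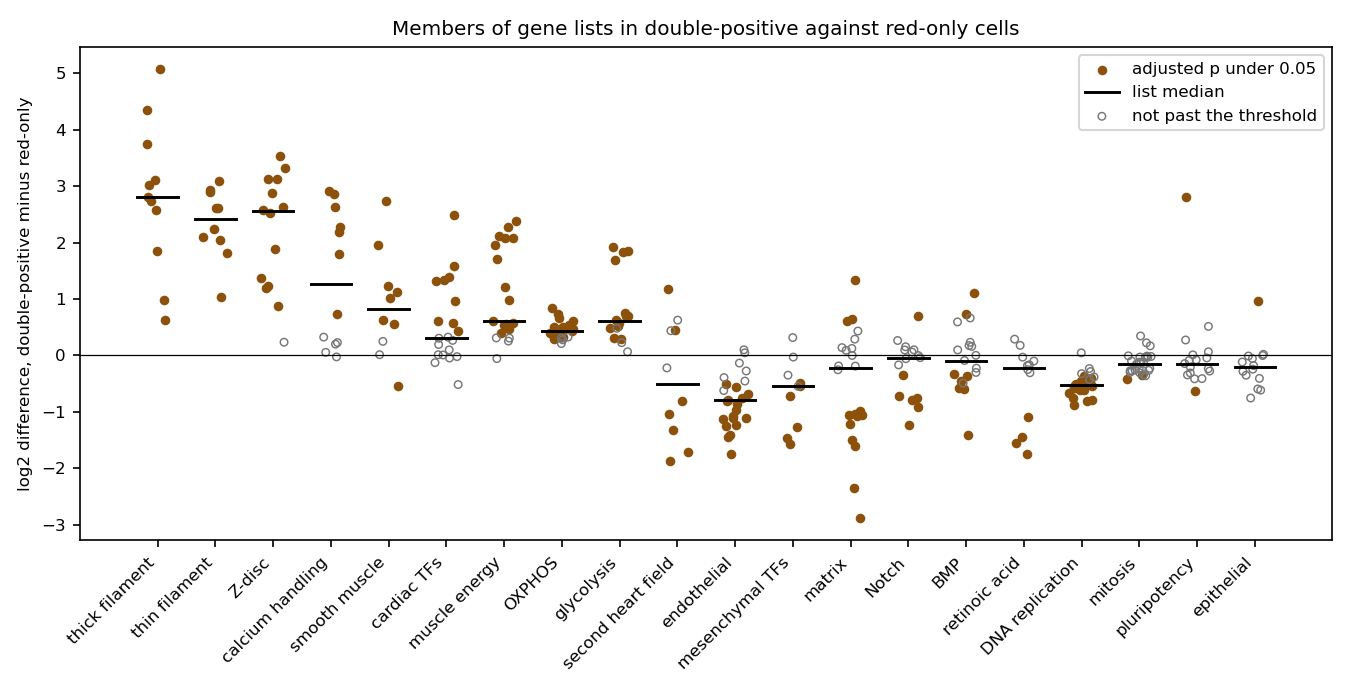
Log2 difference, double-positive minus red-only, of each tested member of 20 gene lists; filled points passed an adjusted p under 0.05, open points did not, and bars mark list medians. The thick filament (2.80), Z-disc (2.55) and thin filament (2.42) lists have the highest medians of those shown and the endothelial list the lowest (-0.80).

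Chamber genes included the ventricular Myl2 and Irx4 and the atrial light chain Myl7, which read 6442, 5386 and 5699 against 1347, 1517 and 2075 (3.6-fold). In all 5 of 8 tested rose and 2 fell; without experiment A 3 rose. Hey1, a Notch target of the atria, read 26.7, 28.1 and 39.1 against 41.3, 63.4 and 75.2 and fell 1.89-fold without overlap. Nr2f2 (COUP-TFII), an atrial and venous factor, fell 1.88-fold, a call lost without the double-positive or the red-only array of A and without experiment A or B.

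Of 10 genes of the second heart field programme tested, 5 fell and 2 rose (median -0.51). Without experiment B 3 fell and none rose, and 1 rose without the block, with quantile normalization, with no filter on low values, or without the double-positive array of B or C, the red-only array of A or B or the double-negative array of B or C. Foxc1, a forkhead factor of mesoderm that acts with Foxc2 upstream of Tbx1, read 17.2, 19 and 17.9 in double-positive and 69.6, 70.9 and 58.0 in red-only cells (3.66-fold lower, adjusted p = 9.06e-06). Foxc2 read 15.4, 32.1 and 28.3 against 64.3, 93.8 and 82.1 (3.29-fold lower). Both were separated in every array. Tbx1, the factor of the pharyngeal second heart field, was 2.04-fold lower and Eya1, a transcriptional cofactor, 2.49-fold lower, each at a level near the floor in double-positive cells. Wnt11, a noncanonical Wnt ligand of the outflow tract, rose 2.25-fold. The calls of Tbx1 and Wnt11 were lost without experiment B.

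Energy metabolism genes rose by smaller steps. Of 19 genes of muscle energy supply tested, 15 rose and none fell (median 0.61; 9 rose without experiment B). Ppargc1a, the coactivator that drives mitochondrial biogenesis, read 61.7, 33.4 and 31.4 against 8.03, 7.28 and 7.70, a 5.24-fold rise from near the floor. Pygm, muscle glycogen phosphorylase, rose 4.83-fold, and Cox7a1, the muscle form of a cytochrome oxidase subunit, 4.33-fold. Fabp3, the heart fatty acid carrier, read 250.04, 278 and 199.6 against 56.5, 50.6 and 63.9 (4.23-fold) and Adssl1, muscle adenylosuccinate synthase, rose 4.25-fold. Muscle creatine kinase (Ckm) did not pass, at 12.1 to 15.1 against 8.82 to 12.1.

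Oxidative phosphorylation subunits shifted together and slightly. Of 25 tested, 21 rose, none fell, and the median was 0.43, with every member between 0.21 and 0.84. In all 25 the double-positive arrays lay above the red-only arrays without overlap, against 31% of all genes without overlap in either direction. Cox5a, a cytochrome oxidase subunit, read 1274, 1178 and 1029 against 627, 629 and 686 (1.79-fold), Cyc1 (cytochrome c1) rose 1.66-fold, Sdhd 1.59-fold, Atp5c1 1.53-fold and Ndufs1 1.45-fold. The count depended on single arrays: 10 rose without the double-positive array of A, 13 without the red-only array of B, 11 without experiment A and 4 without experiment B. Glycolysis genes rose in 13 of 16 (median 0.61; 6 without experiment B), led by Pfkp and Hk1, which commit glucose to the pathway (3.77-fold and 3.59-fold), and the muscle enzymes Eno3 and Pgam2 (3.57-fold and 3.22-fold). The lactate exporter Slc16a3 rose 1.69-fold, and its call and that of Ndufs1 were lost without experiment B.

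Smooth muscle genes, many of which early cardiac muscle also expresses, rose in 7 of 10 tested and fell in 1 (median 0.82; 3 rose without experiment B). Cnn1 (calponin) read 160.5, 98.6 and 132 against 19.5, 11.7 and 30.9 (6.66-fold), and Acta2 4499, 3747 and 3526 against 1129, 762 and 1198 (3.86-fold). Myl9, Tagln and Synpo2 rose 2.35-fold, 2.17-fold and 2.01-fold; the ranges of Myl9 and Tagln overlapped, with 87.4 and 219 in the double-positive array of A against 23.8 to 68.8 in the other double-positive arrays. Without the experiment letter as a block neither Myl9 nor Tagln passed, and Tagln and Synpo2 were lost without experiment B. Tagln was also lost without experiment C, without the double-positive array of A and without the red-only array of A or of B. The summed level of the 10 genes was 4060.4 to 5341 in double-positive and 1073 to 1579 in red-only cells, and Myh11, which defines differentiated smooth muscle, was below the filter on low values. The part of smooth muscle cells in these rises was not tested.

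Endothelial genes were lower in double-positive cells. Of 24 tested, 17 fell and none rose, with a median of -0.80, and the summed level was 598 to 846 in double-positive against 1331 to 1809.9 in red-only arrays. Etv2, the ETS factor that starts the endothelial and blood programme, read 19.2, 23.6 and 28.3 against 69.0, 84.0 and 83.5 (3.35-fold lower, adjusted p = 5.41e-06). Kdr, the VEGF receptor of cardiovascular progenitors and endothelium, read 118, 143 and 174 against 319.8, 465 and 369.5. All red-only arrays were above all double-positive arrays for both. Ramp2, a receptor subunit for adrenomedullin, fell 2.74-fold, Tek (Tie2) 2.37-fold and the endocardial natriuretic peptide receptor Npr3 2.35-fold. Of the defining markers Cdh5 (VE-cadherin) read 16.5 to 23.8 against 38.7 to 50.6 and Pecam1 9.49 to 9.87 against 11.8 to 16.4, both past the threshold (adjusted p = 0.0144 and 0.0474). In bulk samples fewer cells of a type and less RNA per cell cannot be told apart.

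The endothelial count depended on the fit. Without the experiment letter as a block 5 of the 24 fell, without experiment B 5, without the double-positive array of B 8 or of C 10, and without the red-only array of A 7 or of B 10. The calls of Tek, Npr3 and Cdh5 were lost without the block, those of Tek and Cdh5 also without experiment B, and that of Cdh5 without experiment C, the double-positive array of B or C, or the red-only array of A. Etv2, Kdr and Ramp2 passed under every alternative run.

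Matrix and mesenchymal genes held the largest falls. Cdh11, a cadherin of mesenchymal cells, read 3.67, 6.97 and 7.98 in double-positive and 59.7, 49.4 and 44.4 in red-only cells, an 8.63-fold fall (log2 difference -3.11 ± 0.25, adjusted p = 1.01e-05). Its double-positive levels are near the floor, so the size of the fold is uncertain. The arrays did not overlap, which was a condition for choosing the largest decreases. Col3a1, a fibrillar collagen, read 25.5, 14.2 and 14.7 against 384, 74.5 and 73.4 (7.34-fold). The red-only array of experiment A stood apart for it, and over the fits with an array or experiment left out its log2 difference ran from -3.19 to -2.27. That array was also the highest for the matricellular Tnc (115, against 41.5 and 34.7 in the other red-only arrays) and the proteoglycan Bgn (63.9, against 31.5 and 28.5). Tnc fell 5.09-fold, Bgn 2.82-fold and the secreted Tgfbi 3.03-fold.

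Of 22 matrix genes tested, 10 fell and 3 rose (median -0.22). Vcan (versican), a proteoglycan of the cardiac jelly, was the largest of the rises, at 533, 446 and 409 against 211, 163 and 174 (2.53-fold). A single gene rose without the double-positive array of A, the red-only array of A or B, or experiment B or C. Col26a1, a collagen, read 5.96, 7.51 and 7.69 against 27.9, 28.2 and 25.6 and fell 3.89-fold to levels near the floor. Mmp2, a matrix metalloproteinase, read 43.9, 48.3 and 55.4 against 203, 197 and 172 and fell 3.88-fold. Neither overlapped.

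Transcription factors of mesenchyme and of epithelial-mesenchymal transition fell in 6 of 10 tested and rose in none (median -0.54; 3 fell without experiment B). Twist1 read 17.0, 20.6 and 20.3 against 52.7, 52.6 and 54.3 (2.77-fold), and Snai2 (Slug) 14.6, 14 and 14.8 against 53.0, 44.0 and 33.9 (2.97-fold). Snai1 fell 2.42-fold, a call lost without experiment B. Zeb2 fell 1.64-fold near the floor. Msx1 fell 1.45-fold, a call lost without the block, without the red-only array of B and without experiment B. Among 9 cadherins tested Cdh2 (N-cadherin), which joins cardiac muscle cells, rose, at 337, 212 and 257 against 112, 95.3 and 126 (2.38-fold), and Cdh5 and Cdh11 fell. Of 8 epicardial genes listed 5 were below the filter, and of the 3 tested 1 rose and 1 fell. The rise did not pass without experiment A or without B. The gene that fell was Tcf21, a factor of epicardial and pharyngeal mesoderm progenitors. It read 8.45, 8.94 and 10.04 against 56.5, 26.1 and 19.8 and fell 3.38-fold.

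Imprinted genes, expressed from 1 parental copy and many of them regulators of fetal growth, fell in 8 of 20 tested and rose in 2 (median -0.31; 5 fell without experiment B or without the red-only array of B). Nnat (neuronatin), a small membrane protein, read 262, 330.1 and 343 in double-positive and 2246, 1613 and 1413 in red-only cells. It fell 5.57-fold without overlap (log2 difference -2.48 ± 0.17, adjusted p = 5.41e-06). Peg10 fell 3.09-fold, Rian, a noncoding RNA, 2.43-fold and its neighbour Dlk1 2.39-fold. The call of Rian was lost without the double-positive array of C or the red-only array of B. The growth inhibitor Cdkn1c (p57) was the larger of the rises, at 1893, 1999 and 2178 against 666, 865 and 1139 (2.32-fold).

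The remaining large decreases were of varied function. Hsd11b2, which inactivates glucocorticoids, read 42.5, 46.7 and 53.8 against 304, 204 and 206 (4.93-fold). Ets1, a factor of endothelium and mesenchyme, read 15.1, 13.7 and 23.7 against 94.3, 70.9 and 50.8 (4.1-fold). Aplnr, the apelin receptor of early mesoderm and vessels, read 9.13, 14.3 and 26.6 against 35.3, 63.7 and 61.7 (3.42-fold) and did not pass without the block. No ranges overlapped. The corepressor Tle1 fell 4.73-fold, Rai14, an actin-binding protein, 4.03-fold, Rhoj 3.62-fold and the sialyltransferase St6gal1 3.41-fold. Of 10 other probe sets tested for the 15 largest decreases 6 were also lower and none was higher.

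Genes of DNA replication, which are switched on for S phase, were lower in double-positive cells. Of 24 tested 18 fell and none rose, with a median of -0.52 and a summed level of 3346 to 4126 in double-positive against 5474 to 5678 in red-only arrays; without experiment B 8 fell. Rrm2, the small subunit of ribonucleotide reductase, read 180.2, 243 and 253 against 406, 424 and 393 (1.83-fold). The helicase subunit Mcm3 read 199, 187 and 187 against 311, 313 and 387 (1.76-fold). Lig1, which joins Okazaki fragments, and the licensing factors Cdt1 and Cdc6 fell 1.72-fold, 1.6-fold and 1.68-fold, and the call of Cdc6 was lost without the red-only array of A or experiment B or C. Of 27 mitosis genes 2 fell (Bub1 1.33-fold and Ccnb2 1.26-fold) and none rose, with a median of -0.15, and both calls were lost without the double-positive array of A or the red-only array of A or B. The share that fell was near the 7.85% of all genes tested. With the larger pseudocount 7 mitosis genes fell, with an intensity trend in the variance 6 and with the stricter filter 4, and in each of these 1 rose. The difference between the lists was not tested.

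**Figure D3:**
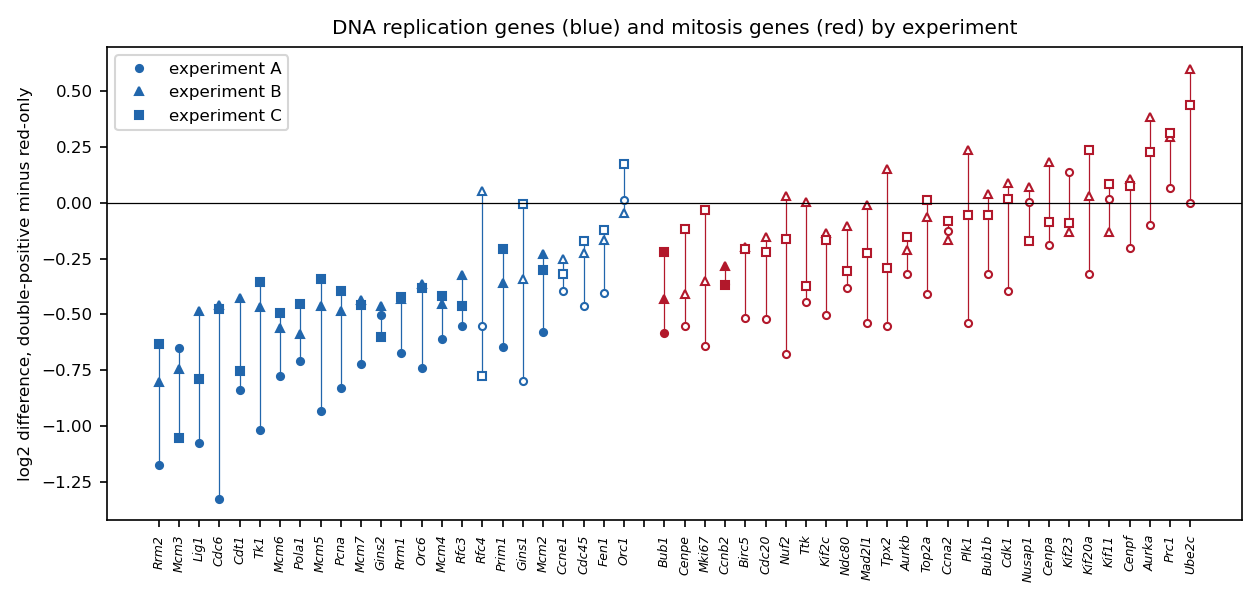
Log2 difference, double-positive minus red-only, within each experiment for 24 DNA replication genes (blue) and 27 mitosis genes (red); filled symbols mark genes past an adjusted p under 0.05. Most genes of both lists have a fitted difference below 0, 23 of 24 replication genes (median -0.52) and 24 of 27 mitosis genes (median -0.15).

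Among 12 D cyclins, cell cycle inhibitors and related genes 3 rose and 1 fell. Besides Cdkn1c the inhibitor Cdkn2d rose 1.86-fold, at 62.6, 59.9 and 56.1 against 34.0, 29.6 and 32.7. Myc, a driver of proliferation, read 12.1, 10.01 and 13.3 against 17.8, 16.2 and 20.3 and fell 1.54-fold. Ccnd2 rose 1.38-fold, a call lost without the block and, among others, without any of the 6 arrays except the double-positive array of C.

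Signalling genes moved in both directions, as did all genes tested, of which 7.29% rose and 7.85% fell. In the BMP pathway, whose ligands promote cardiac fate and whose Id targets hold back differentiation, 6 of 19 fell and 2 rose. Id3 read 113, 109.9 and 161 against 342, 301 and 368 and fell 2.66-fold without overlap; Id1 and the inhibitory Smad6 fell 1.51-fold and 1.49-fold, and the modulator Bmper and the ligand Bmp7 rose 2.16-fold and 1.66-fold. The calls of Id1, Smad6, Bmper and Bmp7 were lost without experiment B, when 1 gene of the list fell; 3 fell without the double-positive and 2 without the red-only array of B. In the Notch pathway, in which receptors on one cell are activated by ligands on the next, 6 of 16 fell and 1 rose. Notch1 read 50.9, 68.7 and 61.2 against 126, 178 and 126 (2.36-fold lower), Notch3 fell 1.72-fold, Notch2 1.69-fold and the target Hes1 1.65-fold. Without experiment B 2 Notch pathway genes fell, and without the double-positive array of A 3; the calls of Notch2, Notch3 and Hes1 were among those lost.

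Among 20 Wnt pathway genes 4 rose and 3 fell, with 1 rise left without experiment B. The ligand Wnt2 of the early heart read 51.7, 130.0 and 89.5 against 14, 25.9 and 31.6 (3.74-fold higher), and Wnt5a rose 2.16-fold. The secreted antagonists Dkk1 and Frzb were lower, Dkk1 at 33.2, 21.6 and 22.1 against 111, 78.8 and 76.1 (3.48-fold) and Frzb 2.98-fold. Of 12 retinoic acid genes 4 fell and none rose. Cyp26a1, which degrades retinoic acid, read 33.1, 17.6 and 28.2 against 97.9, 79.0 and 79.1 (3.34-fold), the binding proteins Crabp1 and Crabp2 fell 2.92-fold and 2.74-fold and the synthetic enzyme Rdh10 2.13-fold, a call lost without experiment B. Of 19 FGF genes 1 rose (Fgf10, 1.37-fold, a call lost without the block) and 2 fell, the receptor Fgfr1 1.94-fold and the feedback gene Dusp6 1.4-fold. The share of FGF genes that passed was near the 15.1% of all genes tested. Of 13 immediate early genes, which cell handling can induce, 1 rose (Fos, 1.5-fold, with overlapping ranges and a call lost without the block) and 3 fell, Junb 2.03-fold, or 1 without experiment B; their part in the results was not tested.

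Lists of markers of other cell types were also examined, beside 7.29% of all genes tested that rose and 7.85% that fell. Among 12 blood genes tested 1 fell, the embryonic globin Hbb-bh1, at 18.5, 12.9 and 48.3 against 34.9, 21.5 and 79.3, with overlapping ranges and a call lost without the block; its level in double-negative cells was 578 to 1149. The pluripotency factors Pou5f1 (11.9 to 21.8 in double-positive, 14.1 to 28.1 in red-only and 329 to 456 in double-negative cells) and Nanog (3.4 to 4.21 and 3.87 to 4.19, against 39.5 to 64.3) did not pass. Of 17 pluripotency genes 1 rose and 1 fell. Of 9 primitive streak genes 1 fell (Eomes) and of 14 epithelial genes 1 rose (Krt19). Among 10 neural genes 1 rose (Nes) and 1 fell (Otx2). The calls of Eomes, Krt19, Nes and Otx2 were lost without experiment B. Of 12 endoderm and 6 paraxial and skeletal muscle genes none passed. By limma, the only tool run, 1 endoderm gene and 1 paraxial or skeletal muscle gene were lower and none higher at an unadjusted p under 0.05. At that p no endothelial, replication or mesenchymal factor gene was higher, no sarcomere or energy gene was lower, 1 cardiac factor was lower, 9 mitosis genes were lower and 2 higher, and 6 retinoic acid genes were lower and 1 higher. Of the defining markers Gata1, Mixl1, Sox1, Myod1 and Myog lay near the floor in both populations, and Tbxt, Wt1 and Myh11 were below the filter.

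The rise in the pluripotency list was that of Tdgf1 (Cripto), a co-receptor for Nodal that also marks early cardiac mesoderm. It read 221, 169 and 186 in double-positive and 21.2, 24.7 and 38.4 in red-only cells, a 7.02-fold rise without overlap (log2 2.81 ± 0.18, adjusted p = 5.41e-06). Green-only cells were at 48.8 to 83.4 and double-negative cells at 50.2 to 65.1, a difference that did not pass (adjusted p = 0.997), and the 2 differences differed by 2.81 ± 0.26 (adjusted p = 5.29e-05). The other member that passed, Lin28a, fell 1.54-fold and lost its call without the block.

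Whether the green reporter went with the same differences in cells negative for the red one was tested in the other 6 arrays. These share no array with the first comparison, only the estimate of the spread. Between green-only and double-negative cells 3305 genes (24.1%; 1475 without experiment B and 1956 without C) passed, and the difference of the 2 differences passed for 1858 genes (13.6%). Of the 999 genes higher in double-positive than in red-only cells, 484 (48.4%, and 31.7% of the 1529 genes higher in green-only cells) were higher in both comparisons and 36 went opposite ways. Of the 1076 lower genes, 293 (27.2%, and 16.5% of the 1776 lower in green-only cells) were lower in both, and 205 (19.1%) went the opposite way, up in the green-only arrays. Of all genes tested 11.2% were higher and 13% lower in green-only than in double-negative arrays. Without experiment B 428 and without experiment C 888 genes passed the test of the difference of the 2 differences.

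**Figure D4:**
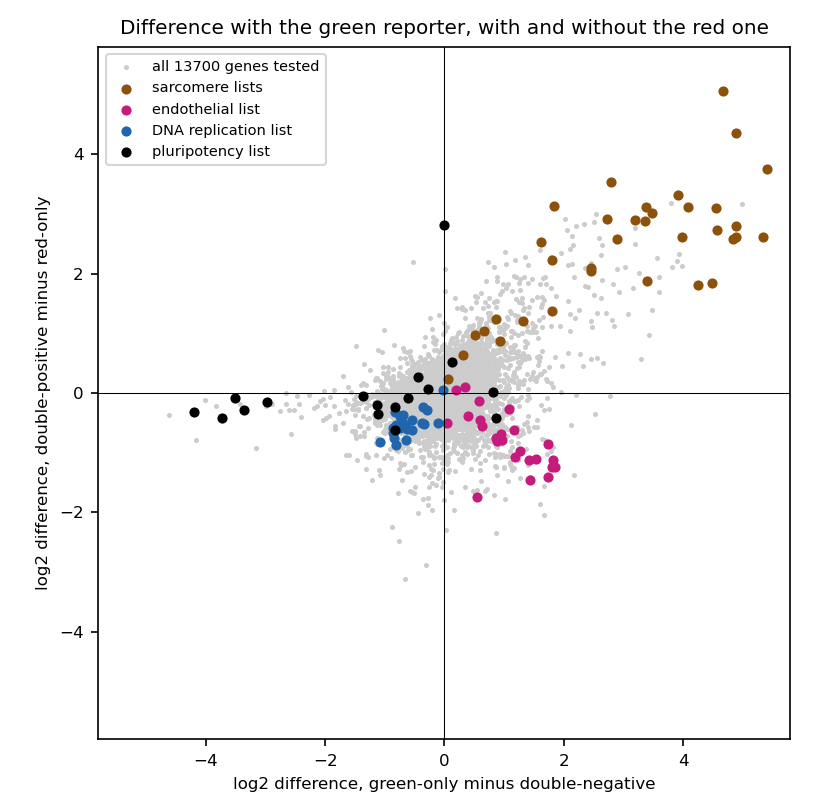
Log2 difference of double-positive minus red-only cells (vertical) against green-only minus double-negative cells (horizontal) for the 13700 genes tested, each point 1 gene, with 4 groups of lists coloured. Most sarcomere genes lie above 0 in both directions, endothelial genes (medians -0.80 and 1.03) lie low on the vertical and high on the horizontal axis, and Tdgf1 lies at 2.81 on the vertical axis.

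Endothelial genes differed in opposite directions in the 2 comparisons. Their median was -0.80 between double-positive and red-only cells and 1.03 between green-only and double-negative cells, where 20 of 24 rose, and for 20 of 24 the 2 differences differed, all in the negative direction (7.26% of all genes). Kdr read 172, 509.8 and 475 in green-only and 67.4, 124 and 133 in double-negative cells. The green-only array of experiment A was the lowest of its group for Kdr, where it lay within the double-positive range of 118 to 174, for Tek (35.8, against 123 and 110.0) and for Cdh5 (25.2, against 96.2 and 94.1). Hapln1, a link protein of the cardiac jelly, Ets1, Rhoj, the endothelin receptor Ednrb and Tnc had the most negative differences between the comparisons, from -3.71 to -3.21. Between green-only and double-negative cells 10 of 11 thick filament, 9 of 10 thin filament and 13 of 14 Z-disc genes rose. The difference between the comparisons was negative for 5, 4 and 2 genes of these lists and positive for 1 Z-disc gene. Myl2 was 5.07 higher in one and 4.67 in the other, and the difference of 0.40 ± 0.44 did not pass, whereas Myh6 rose by 3.76 and 5.41, which differed (adjusted p = 0.0145).

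For Cdh11, Col3a1 and Foxc1 every red-only array lay above all arrays of the other 3 populations. Cdh11 was at 5.13 to 7.73 in green-only and 6.87 to 14.3 in double-negative cells, Col3a1 at 19.1 to 24.0 and 21.4 to 34.0, and Foxc1 at 11.9 to 18.3 and 15.8 to 22.5. None of the 3 passed between green-only and double-negative cells, and for each the 2 differences differed (adjusted p = 0.000889, 0.00343 and 0.000445). Fabp3 read 76.8 to 131 in green-only and 97.2 to 104 in double-negative cells, a difference that did not pass, and its 2 differences differed by 2.07 ± 0.24 (adjusted p = 0.000204). Chchd10, a mitochondrial protein, was 4.57-fold higher in double-positive than in red-only cells and not past the threshold in the other comparison, and their difference was 2.71 ± 0.26.

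**Figure D5:**
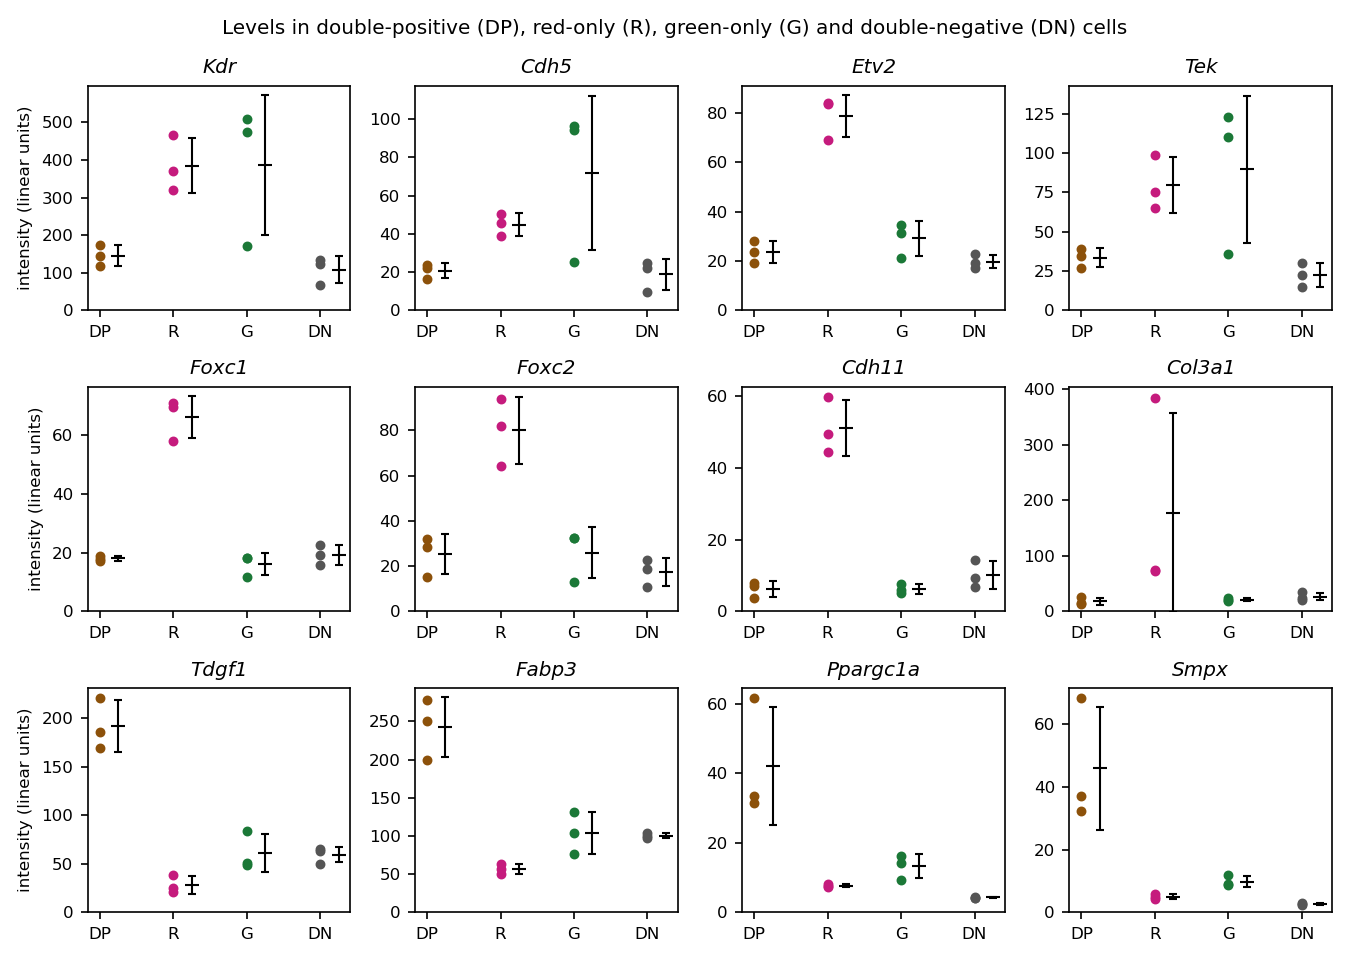
Probe set intensity (linear units) of 12 genes in the 4 populations, each point 1 array and each cross the mean ± SD of 3 arrays. For Kdr, Cdh5 and Tek the red-only arrays and the green-only arrays of experiments B and C are high, with the green-only array of A at 172, 25.2 and 35.8; Foxc1, Cdh11 and Col3a1 are high in red-only cells, and Tdgf1, Fabp3, Ppargc1a and Smpx in double-positive cells.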

How the data were processed

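Total RNA of 12 sorted samples was labelled with biotin from 5 ug each and hybridised to Affymetrix arrays, per the labels' protocols. The authors deposited linear intensity values, 1 per probe set and array; MAS5 is named in the submitters' processing notes, with no version, and the arrays carry no depth, so their number limits the precision. Of 45101 probe sets 64 controls, 9160 without a gene and 932 with several genes were left out. Where several probe sets covered 1 of the 18193 genes, that with the highest mean log2 value was kept. Genes whose mean log2 lay below the 40th percentile (intensity 5.22) were dropped, leaving 13700. No further normalization or pseudocount was used.

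The lmFit and eBayes functions of limma 3.58.1 (R 4.3.3; two-sided) were applied to log2 intensities of all 12 arrays, with 1 mean per population and the experiment letter as a block (6 residual degrees of freedom), and p-values were adjusted by Benjamini-Hochberg over all genes tested, with a threshold of 0.05. The titles pair the arrays: deviations from population means correlated at 0.310, 0.352 and 0.114 between the double-positive and red-only arrays of experiments A, B and C. With 3 arrays against 3 an exact permutation test cannot go below 0.1. The members and gene lists were chosen with earlier results of these data known. Named were Nkx2-5, Mef2c and Isl1, the markers Myl2, Myl3, Cdh11 and Nnat, and the 15 largest increases and decreases without overlap, with 1 sign in every experiment and a higher mean above 21.1. Of each list up to 5 members past the threshold were named, besides members that did not pass, and for the difference of differences 5 in each direction. The procedure was tested on simulated data. Alternatives were the fit without the block, pseudocounts, quantile normalization, other filters, probe set means, an intensity trend, only 6 arrays, a minimum fold, and arrays or experiments left out; leaving out arrays outside a comparison was chosen after seeing the data. Figures were drawn with matplotlib 3.10.9.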

Additional observations from a re-analysis of the deposited data

Results flagged for a closer look

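The difference between double-positive and red-only cells was set against that between green-only and double-negative cells. By limma's test of the difference itself over all 13700 genes, 13.6% of genes passed, among them 29 named genes. These come from Nkx2-5, Mef2c and Isl1, the markers, the largest changes and the largest differences between the comparisons. The 5 largest differences in each direction were chosen among genes that passed this test, so their passing was fixed in advance. The largest increases and decreases were chosen by the first difference, which is part of the value tested, so they were more apt to pass. The number of named genes that passed therefore cannot be set against the 13.6%. Genes named only as members of a list are not among the 29. The values below are the first log2 difference minus the second. Among cardiac factors they were -1.37 for Nkx2-5, -2.46 for Mef2c and -1.09 for Isl1. Among muscle genes they were -1.65 for Myh6, -1.82 for Sh3bgr, -1.46 for Tnnc1 and 1.30 for Smpx.

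Among genes lower in double-positive cells, negative values were -2.45 for Cdh11, -1.71 for Nnat, -2.57 for Col3a1, -3.21 for Tnc, -2.34 for Hsd11b2 and -1.36 for Tle1. Further values were -3.71 for Ets1, -1.57 for Rai14, -1.76 for Col26a1, -2.12 for Mmp2, -1.61 for Foxc1 and -3.46 for Rhoj. Dkk1 gave -1.79, Aplnr -2.79, St6gal1 -1.41, Hapln1 -3.54 and Ednrb -3.22.

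Positive values were found for Hbb-bh1 (3.37), Tdgf1 (2.81), Chchd10 (2.71), Tuba4a (2.27) and Mtm1 (2.23). Hbb-bh1, Tuba4a and Mtm1 had their highest levels in double-negative cells, at 578 to 1149, 221 to 249 and 706 to 1006.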

How the results depend on the processing

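Of 143 named genes past the threshold, 98 kept their call under every alternative but the minimum fold. The call was lost by 21 without the block and by 41 without some array or experiment. A change of sign was counted only where the gene passed in the reported fit or in the alternative. By this count none of the 143 reversed, and of the other named genes Bmpr2 alone did (0.001 with the mean of its probe sets). With a minimum fold of 2, 374 genes differed between double-positive and red-only cells (229 higher and 145 lower), 513 between green-only and double-negative cells (339 and 174), and 551 in the difference of differences (159 and 392). Leaving out an array or experiment gave 737 to 2313 genes (400 to 1067 higher, 337 to 1246 lower) for double-positive against red-only cells, 1475 to 3330 (717 to 1531 and 758 to 1896) for green-only against double-negative cells, and 428 to 1916 (138 to 949 and 290 to 967) for the difference of differences. The lowest counts came without experiment B in each. In the other alternatives the counts stayed within 1.5 times the reported ones. For the pairing by experiment, 1539 genes passed with no replicate block (771 higher, 768 lower), and 2730 and 1330 in the other comparisons. Deviations from population means were also compared between populations. For all 12 arrays they correlated best with the array of the same letter in each other population. The causes were not tested. Levels near the array medians limit folds of low genes.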
